A study of Mus musculus and Rattus norvegicus with 37 samples.

Results

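The acute phase proteins described here are 10 liver genes chosen by symbol, namely Saa1, Saa2, Saa3, Saa4, Orm1, Orm2, Crp, Hp, Lcn2 and Apcs. All 10 were found among the 48440 entries of the mouse tables, and 6 (Saa4, Orm1, Crp, Hp, Lcn2 and Apcs) among the 32750 entries of the rat tables. Saa1, Saa2, Saa3 and Orm2 were not matched by name in rats and are not analysed there. RNA-seq of polyA RNA from 37 livers was used, 21 from mice and 16 from rats.

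The mice were fed female C57BL/6J animals that received 1 subcutaneous dose of saline or LNA29, locked nucleic acid oligonucleotides that inhibit miR-29a and miR-29b/c at 20 mg/kg each, and were examined on day 7. WT/Floxed mice pooled WT animals of 9 to 11 weeks (4 with LNA29, 3 with saline) and floxed littermates of 15 to 20 weeks (4 with LNA29, 2 with saline), giving n = 8 and n = 5 after the authors left out 1 saline-treated floxed mouse. Mice labelled L-Sirt1 KO, with a liver-specific deletion of the deacetylase Sirt1, were 15 to 20 weeks old (n = 4 with LNA29, n = 4 with saline), so the pooled group holds younger animals than the L-Sirt1 KO group. The rats were males. Zucker Fatty rats (ZFR, fa/fa, which lack a working leptin receptor) and Zucker Lean rats (ZLR) of 5.5 months on chow made up 1 comparison (n = 4 each). ZFR of 3 months that received BT2, an inhibitor of the branched chain ketoacid dehydrogenase kinase, at 20 mg/kg daily for 1 week or its dimethylsulfoxide vehicle made up the other (n = 4 each). The sources used here do not give the driver of the liver deletion.

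The acute phase response is the change in secreted liver proteins that follows infection, injury or other inflammation. Interleukin-6, acting through its receptor and the transcription factor Stat3, and interleukin-1 and tumour necrosis factor, acting through NF-kB and C/EBP factors, raise the transcription of positive acute phase genes in hepatocytes, while negative ones such as albumin and transthyretin fall. Saa1 and Saa2 encode the serum amyloid A proteins that circulate on high density lipoprotein. Saa3 is made largely outside hepatocytes, and Saa4 is expressed constitutively. Orm1 and Orm2 encode alpha-1-acid glycoprotein, a carrier of basic and lipophilic compounds in plasma. Hp encodes haptoglobin, which binds free haemoglobin, and Lcn2 encodes lipocalin 2, which captures bacterial siderophores. Crp and Apcs encode the pentraxins C-reactive protein and serum amyloid P component.

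Each value is a normalized count, that is the authors' estimated read count of a gene divided by a factor of its library. Estimated depths were 42.6 to 78.0 M reads in mice and 0.188 to 58.5 M reads in rats, where 4 libraries (ZLR replicates 3 and 4, ZFR vehicle replicate 4 and ZFR BT2 replicate 4) had under 0.5 M reads and 1 read was worth up to 10.5 normalized counts. Depths and floors cover counting error only. All 8 hepatocyte markers had counts in every group, a weak check of the tissue label, since low counts would also pass it. Sirt1 did not separate the labels: it was 534.6 to 616.5 in the 8 libraries labelled L-Sirt1 KO and 492.7 to 699.1 in the 13 WT/Floxed libraries, in tables that were normalized separately. A gene-level count does not show the loss of an exon, so it checks nothing about the deletion, and the group is named by its label. The paper reports RT-qPCR of hepatic Sirt1 in both genotypes, a measurement that is not part of the values used here. L-Sirt1 KO saline replicate 4 and ZFR BT2 replicate 3 stood apart from their groups in several of the genes described here. Many values that they carry are given with and without them, and the others may also depend on them. The tissue is bulk liver, in which fewer cells of a type and less RNA per cell cannot be told apart.

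The inhibitors were directed at the 3 miR-29 family members below, which share 1 seed. The mature mouse sequences (RefSeq, GRCm38.p6) are printed with the seed, bases 2 to 8, in capitals, to show what was inhibited. miR-29a lies on chromosome 6 at 31062673 to 31062694 on the minus strand, and miR-29c on chromosome 1 at 195037600 to 195037621 on the plus strand. The miR-29b shown is the copy on chromosome 1 at 195037091 to 195037113.
miR-29a-3p: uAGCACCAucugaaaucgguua
miR-29b-3p: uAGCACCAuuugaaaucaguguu
miR-29c-3p: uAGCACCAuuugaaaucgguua
The 7 bases complementary to this seed, TGGTGCT, were present in the annotated 3′ UTR of 10.9% of 19089 mouse genes and in 0 of the 10 acute phase genes, whose 3′ UTRs were 113 to 1524 bases long. That says only that these letters are not in those annotated stretches.

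The acute phase genes are clustered in the mouse genome (GRCm38, GENCODE M21). Saa3 (chr7:46711998-46715700, minus strand), Saa4 (chr7:46727998-46732603, minus strand), Saa1 (chr7:46740497-46742980, minus strand) and Saa2 (chr7:46751790-46754313, plus strand) lie next to each other, as do Orm1 (chr4:63344560-63348163), Orm3 (chr4:63356162-63359511) and Orm2 (chr4:63362449-63365878), all on the plus strand. Crp (chr1:172698055-172833031, plus strand) and Apcs (chr1:172893961-172895041, minus strand) are neighbours. Lcn2 is on chromosome 2 (chr2:32384633-32388252, minus strand) and Hp on chromosome 8 (chr8:109575128-109579172, minus strand). The transcripts of Saa1 and Saa2 were 94.4% identical over 606 aligned bases but shared 0 windows of 100 bases, the read length. Orm1 and Orm2 were 91.0% identical over 775 bases and shared 47 of 676 windows. The split of reads between Orm1 and Orm2 is therefore uncertain, and sums over near-identical genes are given as well.

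The 250 bases before the annotated start are printed for 4 genes that fell after LNA29 in the WT/Floxed group, and for Saa3, a neighbour of Saa1 and Saa2 that did not pass the criteria. They show how alike the windows of Saa1 and Saa2 are and where the letters TTGCNNAA, a C/EBP type motif, occur on either strand (in capitals). They come from the RefSeq table (GRCm38.p6) and lie at chr7:46742981-46743230 (Saa1, minus strand), chr7:46751583-46751832 (Saa2, plus), chr2:32387740-32387989 (Lcn2, minus), chr4:63362199-63362448 (Orm2, plus) and chr7:46715677-46715926 (Saa3, minus). The starts are those of RefSeq and differ in part from the GENCODE coordinates above. By the latter the Lcn2 window lies inside the gene, and the Saa2 and Saa3 windows reach into theirs.
Saa1: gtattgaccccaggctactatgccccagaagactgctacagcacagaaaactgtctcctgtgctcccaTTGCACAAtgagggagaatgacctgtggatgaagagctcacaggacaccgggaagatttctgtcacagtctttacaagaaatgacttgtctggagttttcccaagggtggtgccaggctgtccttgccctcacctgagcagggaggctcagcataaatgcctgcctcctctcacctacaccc
Saa2: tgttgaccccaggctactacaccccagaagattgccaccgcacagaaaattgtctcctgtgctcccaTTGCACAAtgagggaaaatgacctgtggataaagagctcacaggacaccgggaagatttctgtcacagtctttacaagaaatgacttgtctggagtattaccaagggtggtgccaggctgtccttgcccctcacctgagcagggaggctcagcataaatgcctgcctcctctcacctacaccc
Lcn2: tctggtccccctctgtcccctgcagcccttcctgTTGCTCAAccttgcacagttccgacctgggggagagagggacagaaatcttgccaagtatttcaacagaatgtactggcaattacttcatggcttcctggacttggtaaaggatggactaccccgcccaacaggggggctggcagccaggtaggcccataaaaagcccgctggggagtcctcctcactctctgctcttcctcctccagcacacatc
Orm2: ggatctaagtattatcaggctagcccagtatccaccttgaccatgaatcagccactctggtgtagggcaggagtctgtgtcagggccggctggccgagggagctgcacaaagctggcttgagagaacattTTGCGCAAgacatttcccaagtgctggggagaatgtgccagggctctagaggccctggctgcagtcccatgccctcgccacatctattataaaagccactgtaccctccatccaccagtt
Saa3: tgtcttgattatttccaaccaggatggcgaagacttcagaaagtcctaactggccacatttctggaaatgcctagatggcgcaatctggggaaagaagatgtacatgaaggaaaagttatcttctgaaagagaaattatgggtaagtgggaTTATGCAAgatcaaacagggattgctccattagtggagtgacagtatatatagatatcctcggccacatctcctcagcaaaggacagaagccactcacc
The windows of Saa1 and Saa2 were 95.6% identical over 249 aligned bases, and both held TTGCACAA at nearly the same distance, 182 to 175 and 183 to 176 bases before the start. The letters were found in 6 of the 8 acute phase windows in the table (Lcn2, Orm2, Saa1, Saa2, Saa3 and Saa4) against 9.56% of all 32851 windows. Orm1 and Hp had no window and were not searched. The matches of Saa1 and Saa2, as near copies, are not separate observations. TTCNNNGAA, a STAT type motif, was found in 1 of the 8 (Apcs) against 7.02% of all windows. The NF-kB motif, searched in its classical 10 base form, was found in 0 of the 8 against 7.25%. No match overlapped another motif. A match is a description of the sequence and not a bound site.

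The order of levels in mouse liver was set per kb of transcript, since the genes differ in length. In saline-treated WT/Floxed mice Hp was the most abundant at 86535 ± 8863 normalized counts per kb (SD, n = 5). Orm1 followed at 44901 ± 3343 per kb, then Crp at 16044 ± 1394, Apcs at 9097 ± 1553 and Saa4 at 4692 ± 308 per kb. None of these 5 overlapped its neighbour in the order. Saa1 came next at 2602 ± 673 per kb, and its lowest library (1758 per kb) just met the highest of Saa2 (1767 per kb). Saa2 (1305 ± 363 per kb) and Orm2 (1195 ± 484 per kb) did not differ beyond their spread, and nor did Saa3 (400.1 ± 172 per kb), Lcn2 (357 ± 46.0 per kb) and the third orosomucoid copy Orm3 (342 ± 73.0 per kb). The genes at the abundant end thus include the constitutive Saa4, and the genes at the low end include Saa2 and Lcn2.

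**Figure D1:**
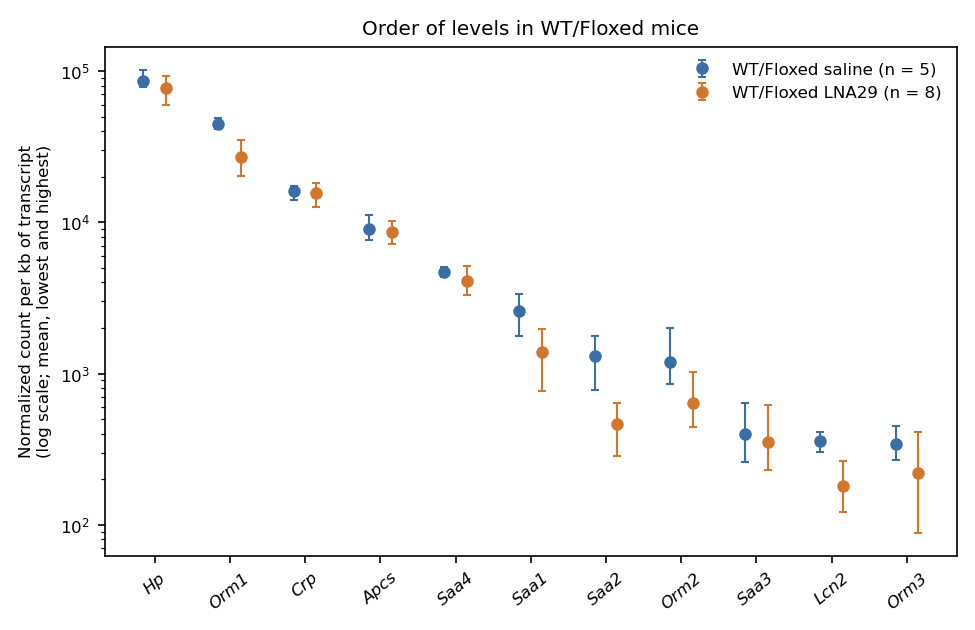
Level of each acute phase gene and of Orm3 in WT/Floxed mice, in normalized counts per kb of transcript on a log axis. Points are means and bars run from the lowest to the highest library. Hp (86535 per kb with saline) and Orm3 (342 per kb) mark the ends of the order in saline-treated mice, and the gap between saline and LNA29 is widest for Saa2.

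The first comparison asks how the liver changes 7 days after miR-29 inhibition in WT/Floxed mice. Of the 10 acute phase genes, 5 were lower with LNA29 by the criteria of the study (p-value under 0.05, adjusted p-value under 0.2, mean above 50 and fold change above 1.2) and 0 were higher. The 5 were Saa2, Lcn2, Saa1, Orm2 and Orm1. The background was 1.93% of 15811 genes tested called lower and 2.42% called higher. All 10 genes passed the minimum mean, and their median log2 fold change was -0.47 against 0.00 over all genes tested. The fitted difference was negative for all 10 with the settings used here.

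Saa2 had the largest fall. It was 888, 1071, 756, 772 and 468 normalized counts in the 5 saline-treated livers. In the 8 LNA29-treated livers it ran from 172 to 385 with a median of 280.2. Every LNA29 library was therefore below every saline library. On the log2 scale the change was -1.48 ± 0.21 (SE; adjusted p = 0.00237, limma), and the exact two-sided permutation test over 1287 splits gave p = 0.00155, the smallest that 8 against 5 libraries allow.

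Saa1, its neighbour, was 1756, 2045, 1244, 1807 and 1071 normalized counts with saline. With LNA29 it ran from 465 to 1199 with a median of 788. The groups overlapped, since 1 saline library lay within the LNA29 range. The fitted log2 change was -0.91 ± 0.21 (SE; adjusted p = 0.0466, limma; exact permutation p = 0.00311). Summed over Saa1 and Saa2, the log2 fold change was -1.08 ± 0.20 (SE; adjusted p = 0.0187, limma).

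Saa3 and Saa4 did not pass the criteria. Saa3 was 222 ± 95.2 normalized counts with saline (SD, n = 5) and 195 ± 78.7 with LNA29 (SD, n = 8), with a 95% interval of the log2 difference from -0.76 to 0.42. Saa4 was 9825 ± 646 with saline (SD, n = 5) and 8626 ± 1291 with LNA29 (SD, n = 8), with an interval from -0.41 to 0.01. Both intervals include 0.

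Lcn2 was 358, 275, 328, 377 and 296 normalized counts with saline, and 111 to 242 with a median of 154 with LNA29. The groups did not overlap. Its log2 fold change was -1.02 ± 0.17 (SE; adjusted p = 0.00983, limma; exact permutation p = 0.00155). Of the genes described here, 3 (Saa2, Lcn2 and Orm1) had LNA29 groups wholly below saline, against 0.569% of all genes tested.

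Orm1, the most abundant of the called genes, was 33298, 37177, 33519, 32064 and 37933 normalized counts with saline. It ran from 15746 to 27085 with a median of 21378 with LNA29, without overlap. On the log2 scale the change was -0.73 ± 0.10 (SE; adjusted p = 0.00272, limma; exact permutation p = 0.00155). Orm2 was 734, 1562, 659, 704 and 972 with saline and 343 to 798 with a median of 499 with LNA29. Here the groups overlapped through LNA29 replicate 6, at 798, and saline replicate 2 was the highest of all. The log2 fold change of Orm2 was -0.86 ± 0.22 (SE; adjusted p = 0.0763, limma; exact permutation p = 0.00622). Orm3 was 264.7 ± 56.4 with saline (SD, n = 5) and 171 ± 89.8 with LNA29 (SD, n = 8) and did not pass (adjusted p = 0.317, limma). The sum of Orm1, Orm2 and Orm3 had a log2 change of -0.74 ± 0.11 (standard error, SE; adjusted p = 0.00286, limma).

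Haptoglobin and the pentraxins did not pass the criteria. Hp was 116390 ± 11920 normalized counts with saline (SD, n = 5) and 104041 ± 12980 with LNA29 (SD, n = 8), with a 95% interval of the log2 difference from -0.38 to 0.04. Crp was 27195 ± 2363 and 26343 ± 3259, with an interval from -0.25 to 0.15. Apcs was 8833 ± 1508 and 8364 ± 1093, with an interval from -0.31 to 0.17. The 3 intervals include 0.

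**Figure D2:**
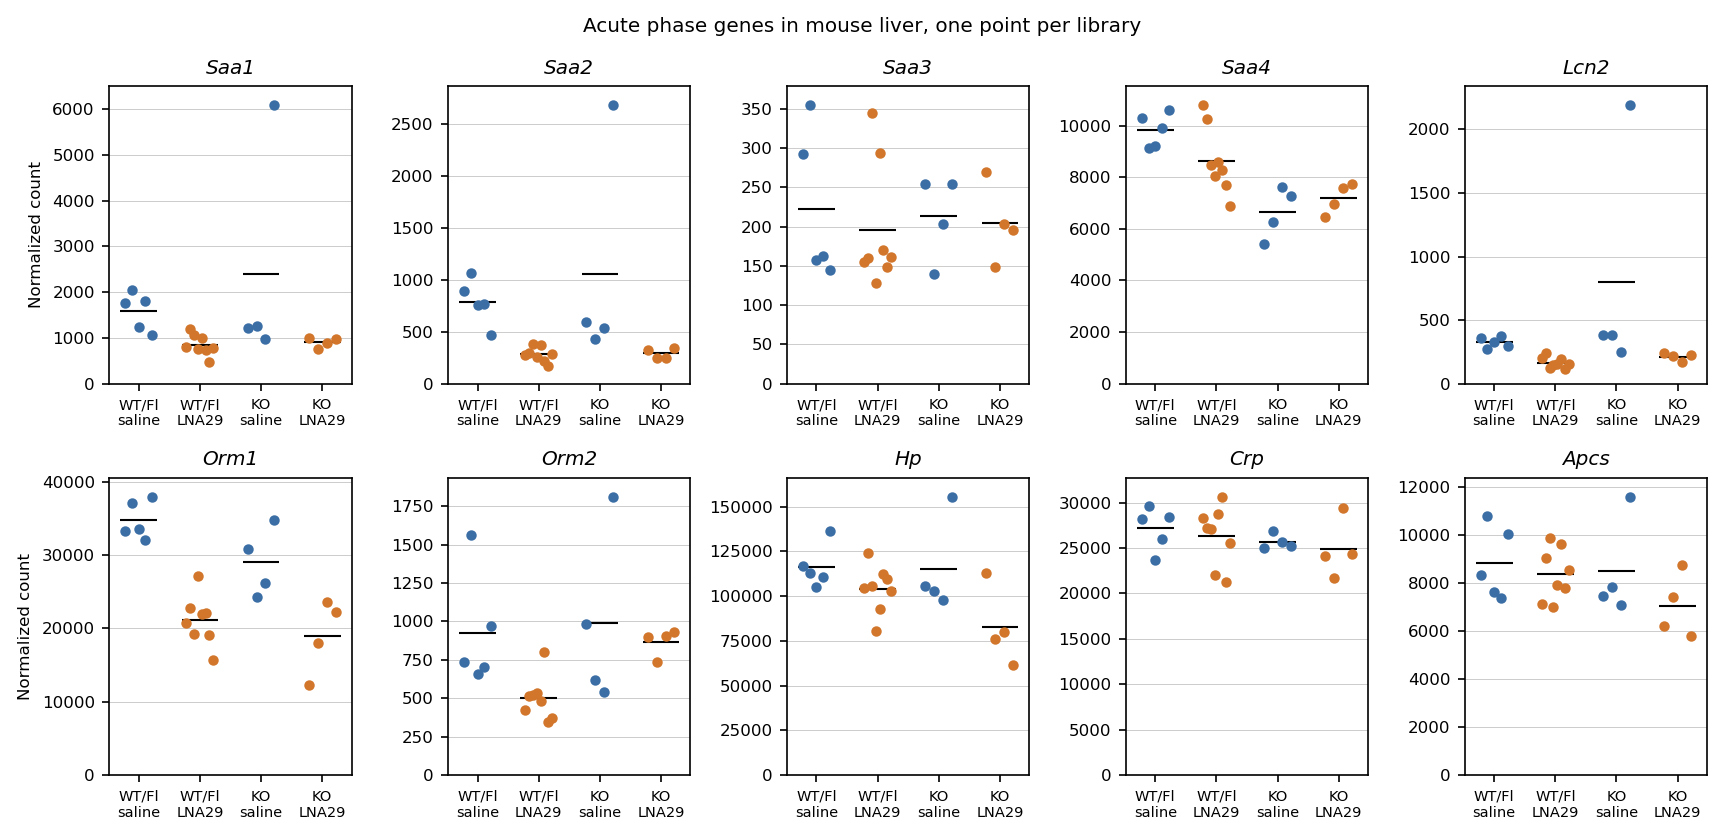
Normalized counts of the 10 genes in each mouse library (points; WT/Fl is WT/Floxed and KO is the group labelled L-Sirt1 KO; blue saline, orange LNA29), with horizontal bars at the group means and linear axes from 0. In WT/Floxed mice the LNA29 points of Saa2, Lcn2 and Orm1 lie below all saline points, and 1 L-Sirt1 KO saline library sits far above the rest for Saa1 (6080), Saa2 (2682) and Lcn2 (2189).

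The libraries came from 3 flow cells. Within each of them the difference of mean log2 values between LNA29 and saline was negative for the 5 called genes, from -1.43 to -1.63 for Saa2, from -0.81 to -1.36 for Lcn2, from -0.51 to -1.01 for Orm1, from -0.60 to -1.22 for Saa1 and from -0.16 to -1.22 for Orm2, where 1 of the flow cells held a single saline library. Within WT mice and within floxed mice the differences were -1.72 and -1.20 for Saa2, -1.08 and -0.90 for Lcn2, -0.57 and -0.94 for Orm1, -1.05 and -0.75 for Saa1, and -0.64 and -1.24 for Orm2. The direction was thus shared by both backgrounds for these 5 genes.

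Other genes of the acute phase pathway were taken from lists set out by role. Of 20 further positive acute phase genes tested, 0 were called in either direction in WT/Floxed mice. Their median log2 fold change was -0.04, and the largest was -0.76 for Mt2, a metallothionein that binds zinc (adjusted p = 0.450, limma). The fibrinogen chains Fga, Fgb and Fgg had positive values of 0.27, 0.22 and 0.25 that did not meet the criteria, Fgg because of its fold change alone (adjusted p = 0.167, limma). Of 9 negative acute phase genes, 2 rose. Ahsg, which encodes the mineral-binding fetuin-A, went from 468446 ± 55099 normalized counts with saline to 888977 ± 70703 with LNA29, a log2 change of 0.93 ± 0.10 (SE; adjusted p = 0.000151, limma). Apoa1, the main protein of high density lipoprotein, rose by 0.51 ± 0.11 (adjusted p = 0.0312, limma).

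Among 23 tested receptors and regulators, only Il1r1, the signalling receptor of interleukin-1, was called, with a log2 change of 0.40 ± 0.11 (SE; adjusted p = 0.108, limma). Stat3 (-0.04), its target and feedback inhibitor Socs3 (-0.07), Cebpb (0.04) and Cebpd (-0.07) had log2 fold changes near 0 and did not pass, as did the interleukin-6 receptor chains Il6ra (0.20) and Il6st (0.10). Markers of other cells varied beside these values. The sum of 9 macrophage markers ran from 7660 to 40922 normalized counts with LNA29 and from 14050 to 24769 with saline, with 0 of 9 called and 8 of 9 negative. The sum of 10 neutrophil markers, 6 of which had a mean under 10, ran from 115 to 339 with LNA29 and from 181 to 290 with saline. The part of these cells in the Saa and Lcn2 values was not tested.

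The second comparison asks whether the response to LNA29 needs hepatic Sirt1. Among the mice with the L-Sirt1 KO label, 0 of the 10 genes were called in either direction by the same criteria in limma. The background was 0.68% of 15885 genes called lower and 1.19% called higher. An unadjusted p-value under 0.05 in limma was met by 4 of the 10 genes and by 1779 of the 15885. The median log2 fold change of the 10 was -0.37 against -0.0027 over all genes, and 9 of 10 were negative. Both rest in part on saline replicate 4, since without it the median was -0.22 and 7 of 10 were negative. The LNA29 libraries of Saa2, Lcn2 and Orm1 lay wholly below the saline libraries, against 3.3% of all genes with such a pattern. With 4 against 4 libraries there are 70 splits, and the smallest exact p is 0.0286.

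Saa2 was 597, 426, 539 and 2682 normalized counts with saline and 324, 245, 249 and 343 with LNA29. The fitted log2 change was -1.44 ± 0.49 (SE; adjusted p = 0.312, limma; exact permutation p = 0.0286). Saline replicate 4 set both the size and the error, and without it the log2 fold change was -0.84 ± 0.18 (SE; adjusted p = 0.162, limma) and Saa2 met the criteria, against 0.201% of genes called lower in that fit.

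Lcn2 was 383, 379, 245 and 2189 normalized counts with saline and 239, 213, 171 and 222 with LNA29. Its log2 fold change was -1.33 ± 0.56 (SE; adjusted p = 0.421, limma; exact permutation p = 0.0286), and -0.65 ± 0.20 (adjusted p = 0.371, limma) without saline replicate 4. The groups were apart by little once that library was set aside, since saline replicate 3 (245) lay just above LNA29 replicate 1 (239). Saa1 was 1223, 1255, 983 and 6080 with saline and 992, 753, 887 and 980 with LNA29, with overlap. Its log2 fold change was -0.95 ± 0.49 (SE; adjusted p = 0.519, limma), and -0.35 ± 0.14 without saline replicate 4 (adjusted p = 0.494, limma). The sum of Saa1 and Saa2 gave -1.09 ± 0.48 (adjusted p = 0.442, limma), and -0.49 ± 0.13 without saline replicate 4 (adjusted p = 0.284, limma).

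Orm1 was less bound to that library. It was 30783, 24243, 26159 and 34795 normalized counts with saline and 12249, 17999, 23640 and 22182 with LNA29, without overlap. On the log2 scale the change was -0.64 ± 0.20 (SE; adjusted p = 0.275, limma; exact permutation p = 0.0286), and -0.55 ± 0.21 without saline replicate 4 (adjusted p = 0.491, limma). Orm2 showed no such fall. It was 986, 616, 540 and 1810 with saline and 897, 735, 904 and 931 with LNA29, a log2 fold change of -0.02 ± 0.33 that turned to 0.32 ± 0.20 without saline replicate 4 (adjusted p = 0.677, limma).

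Hp had a log2 change of -0.49 ± 0.20 (SE; adjusted p = 0.401, limma) from 115413 ± 26853 to 82639 ± 21861 normalized counts (SD, n = 4 each), and -0.34 ± 0.18 without saline replicate 4 (adjusted p = 0.619, limma). Apcs went from 8485 ± 2087 to 7051 ± 1336, Crp from 25657 ± 825 to 24872 ± 3258, Saa3 from 213 ± 54.4 to 204.2 ± 50.03 and Saa4 from 6648 ± 999 to 7183 ± 583, all within overlapping ranges. The 95% intervals of the log2 difference were -0.27 to 0.17 for Crp and -0.58 to 0.47 for Saa3. The log2 change of Apcs was -0.26 ± 0.18 (SE), and -0.10 ± 0.14 without saline replicate 4.

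L-Sirt1 KO saline replicate 4 was 5.27, 5.15 and 6.52 times the mean of the other 3 saline libraries for Saa1, Saa2 and Lcn2, 2.54 times for Orm2, 1.52 times for Hp and 1.55 times for Apcs, while Crp (0.977 times) and Saa4 (1.13 times) were at the level of the others. Of 21 further positive acute phase genes in the table, 14 were above the other 3 saline libraries in it, 5 lay among them and 2 were below. The share of all genes above the others in this library was not counted, so the 14 of 21 have no background here. Of 9 macrophage markers 7 were also above and 0 below, and of 10 neutrophil markers 8 were above and 1 below. Lrg1 was 39540 against 10780 to 13624, while Hamp was 42807 against 54386 to 99141 and Cfb was 73961 against 74022 to 80774. Socs3 was 2386 against 227 to 939, but of the 24 regulators only 4 were above the other saline libraries, 17 lay among them and 3 were below. The summed neutrophil markers were 360.2 against 201 to 239.8 and the summed adipocyte markers 1423 against 28.0 to 72.4. Their part in the values of this library was not tested. In the flow cell that held saline replicates 3 and 4, the LNA29 difference was -1.81 for Saa2 and -1.72 for Lcn2, against -0.77 and -1.08 for Saa2 and -1.15 and -0.76 for Lcn2 in the other flow cells, each with 1 or 2 libraries a group.

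Whether the LNA29 response differed by genotype was examined with an interaction term over 15601 genes, of which 0.0449% were called. Of the 10 genes, 0 were called in limma, with unadjusted p-values of 0.0519 or above and adjusted values from 0.551 to 0.998. The largest estimate was for Orm2, whose response was 0.83 ± 0.40 higher (log2, SE) in the mice labelled L-Sirt1 KO (adjusted p = 0.551, limma), and 1.18 ± 0.35 higher without saline replicate 4 (adjusted p = 0.437, limma). For Saa2 and Saa1 the estimates were 0.04 ± 0.51 and -0.04 ± 0.51, and without that library 0.64 ± 0.32 and 0.56 ± 0.31. A response of these genes that differs between the genotypes was neither shown nor shown to be absent at this spread.

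**Figure D3:**
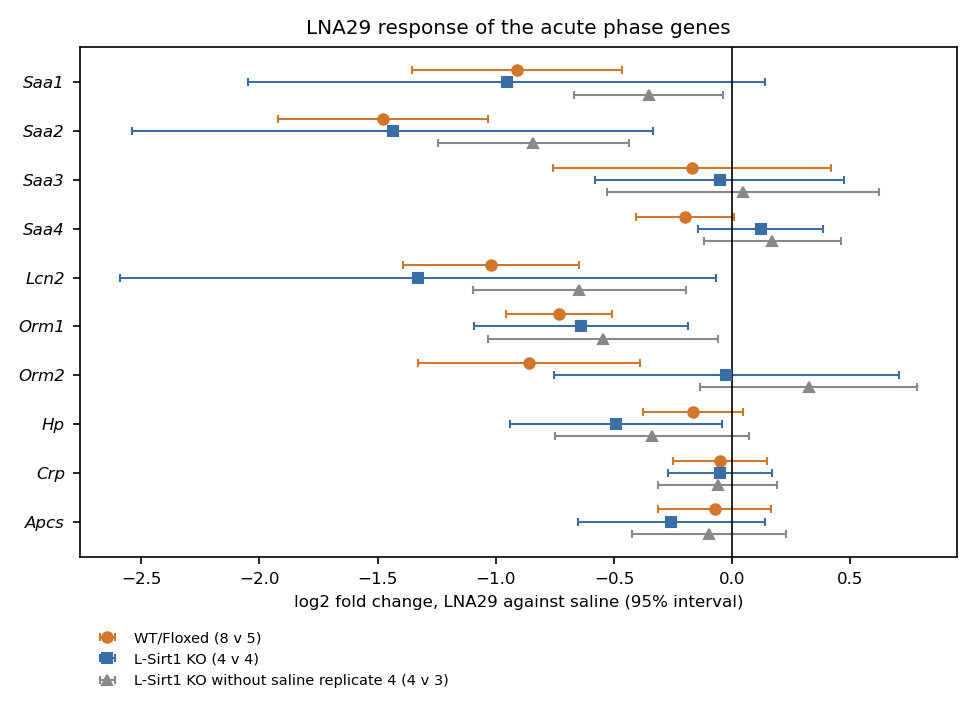
log2 fold change of LNA29 against saline for each gene, with 95% intervals from limma, in WT/Floxed mice (orange), in mice labelled L-Sirt1 KO (blue) and in the latter without saline replicate 4 (grey). The intervals of Saa2, Lcn2, Saa1, Orm1 and Orm2 lie below 0 in WT/Floxed mice, and removing the 1 library moves Saa2 in L-Sirt1 KO mice from -1.44 to -0.84.

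In the mice labelled L-Sirt1 KO, 0 of 20 further positive acute phase genes were called and Mt2 had the largest log2 fold change (-1.34; adjusted p = 0.461, limma). Without saline replicate 4 Mt2 was -1.11 ± 0.67 (SE; adjusted p = 0.666, limma). Of 9 negative acute phase genes Ahsg rose, from 481164 ± 19950 to 854599 ± 29603 normalized counts (log2 fold change 0.83 ± 0.09, SE; adjusted p = 0.00783, limma). Among 22 tested regulators Cebpa, a C/EBP factor of the mature hepatocyte, fell by 0.49 ± 0.12 on the log2 scale (adjusted p = 0.181, limma), a call that was lost without saline replicate 4 (-0.51 ± 0.14; adjusted p = 0.315, limma). Stat3 (0.13), Socs3 (-1.15), Cebpb (-0.15), Cebpd (-0.31), Il6ra (-0.10) and Il6st (0.24) did not pass. The Socs3 value rests on saline replicate 4, without which it was -0.52 ± 0.53. In that fit Stat3 was 0.23, Cebpb -0.23, Cebpd -0.27, Il6ra 0.02 and Il6st 0.37, again without a call. The macrophage markers Vsig4 and Clec4f fell by 0.54 and 0.29 on the log2 scale, both calls being lost without saline replicate 4 (-0.52 and -0.27; adjusted p = 0.214 and 0.388, limma), and the sum of the 9 macrophage markers ran from 13644 to 16844 with LNA29 and from 16822 to 20528 with saline. Their part in the acute phase values was not tested.

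By a fixed rule, the genes whose pattern was most like the acute phase genes were those with the highest Pearson r between their log2 value and the mean of the standardised log2 values of the 10 genes. Over the 13 WT/Floxed libraries, which share the treatment contrast, these were the predicted gene Gm42375 (r = 0.96), the sulfotransferase Sult3a1 (0.932), the mitochondrial transhydrogenase Nnt (0.914), Atg3 (0.911), an enzyme of autophagosome formation, and the peptidase Cpq (0.904), from 12866 genes compared. Over the 8 libraries labelled L-Sirt1 KO the same genes had r of 0.156, 0.306, 0.367, 0.136 and -0.276, so the likeness was not seen there. In saline replicate 4, however, 7 of the 10 acute phase genes lay above the other saline libraries. The r values there may rest largely on that library, and no r without it was computed.

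The third comparison asks how the liver of obese ZFR differs from that of ZLR. Of the 6 acute phase genes in the rat table, 3 were higher in ZFR (Lcn2, Orm1 and Hp) at an adjusted p-value under 0.05 and 0 were lower, where 1.8% of 8633 genes were called higher and 2.46% lower. All 6 genes passed the minimum mean. The groups of all 6 did not overlap, with Lcn2, Orm1, Hp and Saa4 higher and Crp and Apcs lower in ZFR, while 7.8% of genes were wholly higher and 6.68% wholly lower. Each of the 6 therefore had an exact permutation p of 0.0286, the smallest that 4 against 4 libraries allow.

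Lcn2 had the largest difference. It was 118, 152, 146 and 296 normalized counts in ZFR and 2.07, 2.505, 0 and 10.4 in ZLR, a log2 fold change of 5.66 ± 0.65 on the log2(normalized count + 1) scale (SE; adjusted p = 0.00123, limma). In the deeply sequenced ZLR replicates 1 and 2 these values rest on 54 and 58 reads, and in the shallow replicates 3 and 4 on 0 and 1 read, where 0 reads allow up to 31.6 normalized counts. In ZFR they rest on 3681, 129, 70 and 190 reads. The lowest ZFR value thus lay above that floor.

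Orm1 was 3040, 2111, 2018 and 2598 normalized counts in ZFR and 451, 467, 843 and 522 in ZLR, a log2 change of 2.12 ± 0.21 (SE; adjusted p = 0.000568, limma). Hp, at a far higher count, was 29534, 22329, 23770 and 26989 in ZFR and 17849, 17286, 20753 and 17460 in ZLR. Its log2 fold change was 0.48 ± 0.11 (adjusted p = 0.0416, limma). Hp was no longer called when any 1 of ZLR replicates 1, 2 or 4 or ZFR replicates 1, 3 or 4 was left out, with adjusted p-values up to 0.120, and its log2 fold change was then 0.41 to 0.51.

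Saa4 was 3098, 2485, 2437 and 2478 normalized counts in ZFR and 2054, 2175, 2142 and 2021 in ZLR, a difference of 0.32 ± 0.10 (log2, SE) short of the threshold (adjusted p = 0.113, limma). Both pentraxins lay the other way. Crp was 6211, 6464, 6576 and 7143 in ZFR and 7609, 10511, 9447 and 8555 in ZLR (-0.44 ± 0.11; adjusted p = 0.0519, limma). Crp was called lower when ZLR replicate 1 was left out (adjusted p = 0.0163, limma). Apcs was 1185, 1064, 1239 and 1388 in ZFR and 1940, 1550, 1527 and 1504 in ZLR (-0.42 ± 0.12; adjusted p = 0.0848, limma). Within the 2 flow cells, each with 2 libraries a group, the differences of mean log2 values were 5.36 and 5.95 for Lcn2, 2.46 and 1.79 for Orm1, 0.55 and 0.41 for Hp, -0.50 and -0.39 for Crp and -0.63 and -0.21 for Apcs.

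Other acute phase genes moved in both directions. Of 19 further positive acute phase genes, 3 rose in ZFR, namely Lbp, which presents lipopolysaccharide (1.08 ± 0.15; adjusted p = 0.00346, limma), Itih4 (0.66) and the copper oxidase Cp (0.39). Another 3 fell, namely Hamp, the iron hormone hepcidin (-1.01 ± 0.13; adjusted p = 0.00254, limma), and the fibrinogen chains Fga (-0.60) and Fgb (-0.53). Their median log2 fold change was -0.0026 against 0.07 over all genes. Of 9 negative acute phase genes 5 fell, namely the growth factor Igf1 (-0.97), the corticosteroid-binding globulin Serpina6 (-0.95), Fetub (-0.90), Ahsg (-0.57) and transthyretin, Ttr (-0.43), and 1 rose, the transferrin Tf (0.44; adjusted p = 0.0192, limma). Of 19 tested regulators Stat3 was called, at 330.4 ± 12.1 normalized counts in ZFR and 184 ± 18.9 in ZLR (SD, n = 4 each; log2 fold change 0.85 ± 0.11; adjusted p = 0.00231, limma). Socs3 (-0.07), Cebpb (0.21), Cebpd (1.22) and Il6st (-0.40) did not pass.

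Lcn2 is also a product of neutrophils. The sum of 10 neutrophil markers was 2.35 to 35.8 normalized counts in ZFR and 0 to 4.60 in ZLR, all 10 had a mean under 10, and Ltf was at 0 in every library. The sum of 9 macrophage markers was 544 to 917 in ZFR and 512 to 717 in ZLR, with 0 called. The part of these cells in the Lcn2 difference was not tested. Of 8 hepatocyte markers 4 fell in ZFR (Cps1, Fgb, Ttr and Apob), and the marker sum was 186017 to 276836 against 240462 to 304836 in ZLR.

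The fourth comparison asks what 1 week of BT2 does in ZFR. In limma 0 of 8405 genes were called at an adjusted p-value under 0.05 (0% in either direction), and 332 had an unadjusted p-value under 0.05, among them Lcn2 and Hp. All 6 acute phase genes passed the minimum mean and had a positive log2 fold change, with a median of 0.23 against 0.01 over all genes. Without BT2 replicate 3 the median was 0.27 and 5 of 6 were positive. The groups of Lcn2 did not overlap, which held for 1.52% of genes in the higher direction, and those of the other 5 genes overlapped.

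Lcn2 was 35.6, 40.05, 175 and 27.2 normalized counts with BT2 and 9.75, 11.4, 22.9 and 20.6 with vehicle. The fitted log2 change was 1.69 ± 0.54 (SE; adjusted p = 0.898, limma; exact permutation p = 0.0286). Without BT2 replicate 3, the highest, the mean log2 difference was 1.10 (exact permutation p = 0.0571, the smallest that 3 against 4 libraries allow). The other BT2 values rest on 10, 30 and 5 reads and the vehicle values on 16, 51, 25 and 2 reads, so counting error is large here.

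Orm1 was 2366, 2203, 4278 and 2213 normalized counts with BT2 and 2125, 1724, 2419 and 1631 with vehicle, a log2 change of 0.44 ± 0.22 (SE; adjusted p = 0.898, limma; exact permutation p = 0.143). Without BT2 replicate 3 the mean log2 difference was 0.21. Hp was 32632, 31889, 37499 and 27138 with BT2 and 30469, 24643, 26616 and 23892 with vehicle (0.29 ± 0.13; adjusted p = 0.898, limma; exact permutation p = 0.0571). Crp was 8363 ± 2142 with BT2 and 7201 ± 577 with vehicle, Saa4 3351 ± 1116 and 3051 ± 429, and Apcs 1520 ± 249 and 1421 ± 112 (SD, n = 4 each). The 95% intervals of these 3 log2 differences ran from -0.20 to 0.57, from -0.44 to 0.59 and from -0.20 to 0.37. Without BT2 replicate 3 the Crp difference was 0.36 ± 0.12 (SE; adjusted p = 0.723, limma). Its exact permutation p was then 0.0571, the smallest that 3 against 4 libraries allow. In that fit Saa4 was 0.33 ± 0.15, Hp 0.21 ± 0.12 and Apcs -0.02 ± 0.10 (SE), and 0 of the 6 genes were called.

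Within the 2 flow cells, each with 2 libraries a group, the BT2 differences of mean log2 values were 1.63 and 1.75 for Lcn2, 0.63 and 0.25 for Orm1, and 0.34 and 0.24 for Hp. The first value of each pair is from the flow cell that held BT2 replicates 3 and 4. There the log2 values of Lcn2 were 7.46 and 4.82 in these 2 libraries, against 4.58 and 4.44 with vehicle. Those of Orm1 were 12.06 and 11.11, against 11.24 and 10.67 with vehicle. The first values of Lcn2 and Orm1 thus rest largely on BT2 replicate 3. BT2 replicate 3 did not move in 1 direction. Against the mean of the other 3 BT2 libraries it had 5.12 times the Lcn2 and 1.89 times the Orm1, but 0.493 times the Saa4 and 0.610 times the Crp, and Socs3 was 4.02 against 17.4 to 87.0. Among 19 further positive acute phase genes, 16 were positive and 0 called, and the largest log2 fold change was 3.06 for the protease inhibitor A2m, at 203 ± 146 normalized counts with BT2 and 11.3 ± 8.37 with vehicle (SD, n = 4 each; adjusted p = 0.898, limma), with overlapping groups. Without BT2 replicate 3 A2m was 2.31 ± 1.88 (SE). In that fit 17 of the 19 genes were positive, 2 were negative and 0 were called. The largest was then the metallothionein Mt2A, at 3.09 ± 0.44 (SE; adjusted p = 0.115, limma). Of 9 negative acute phase genes, Apoa1 had the largest value (0.30, and 0.20 without BT2 replicate 3) and 0 were called. Of 19 regulators Socs3 had the largest (2.14; adjusted p = 0.898, limma), and Stat3 (0.37), Cebpb (-0.31), Cebpd (0.36) and Il6st (0.38) did not pass either. Without BT2 replicate 3 these were 2.85 for Socs3, 0.70 for Stat3, -0.20 for Cebpb, 0.62 for Cebpd and 0.82 for Il6st, and each again missed the threshold. The sum of neutrophil markers was 0 to 13.3 with BT2 and 0 to 6.20 with vehicle, with 5 of 10 at 0 in every library of a group.

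**Figure D4:**
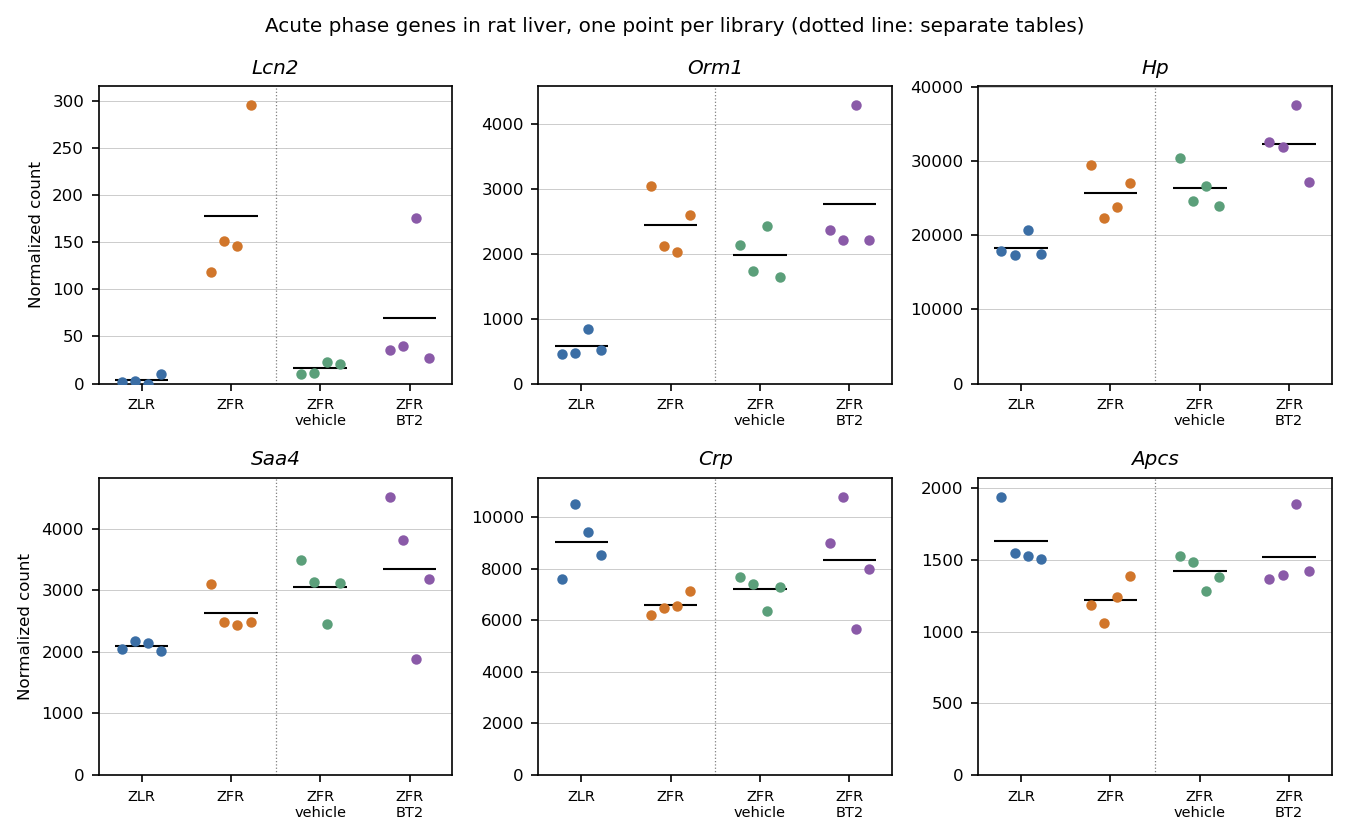
Normalized counts of the 6 genes found in rats, in each library (points), with horizontal bars at the group means and linear axes from 0. The dotted line parts the 2 tables, which were normalized separately and hold rats of 5.5 and 3 months. Lcn2 reaches 118 to 296 in ZFR and at most 10.4 in ZLR, and BT2 replicate 3 is the highest of its group for Lcn2 (175) and Orm1 (4278).

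Over the 8 ZFR and ZLR libraries, genes among those most like the mean of the 6 acute phase genes, of 3857 compared, were Agap3 (r = 0.945), the sialyltransferase St6gal1 (0.935), Rangap1 (0.921) and the acute phase gene Itih4 (0.918). Over the 8 libraries of the BT2 table their r was 0.0141, 0.213, 0.122 and 0.853, so of these 4 only Itih4 kept a high value. No r without BT2 replicate 3 was computed. Set side by side, Lcn2 and Orm1 fell in WT/Floxed mice given LNA29 (-1.02 and -0.73) and were higher in ZFR than in ZLR (5.66 and 2.12), while Crp and Apcs did not pass in any of the 4 comparisons. These values come from different species, ages and tables, and the difference between them was not tested.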

How the data were processed

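The members and gene lists were chosen with earlier results of these data known. Reads were aligned by the authors with STAR (mm10 and rn6), quantified with Salmon and divided by DESeq2 size factors, separately for each of 4 tables, so the deposited values are a signal, estimated counts after normalization. Single-end reads of 100 bases came from polyA libraries, and 0 columns were left unmatched. Whole reads could not be recovered (70.2% to 90.6% of low values were whole multiples of 1 read, within 0.02), so no count model was run. Here log2(normalized count + 1) of genes with a mean of at least 10 was fitted with limma 3.58.1 (R 4.3.3, trend) with Benjamini-Hochberg adjustment across every gene tested. Calls used the criteria given in the text (0.2 for the interaction, 0.05 in rats). Fold changes of low genes are understated on this scale. Depth per library was estimated from the value of 1 read. Permutation tests were exact and two-sided (scipy 1.17.1), and nothing says that libraries of a group are more than separate samples. Entries without a name (381 in mice, 201 in rats; at most 0.0461% of counts) were left out, as were repeated names (130 and 4523). Named were all members and Orm3, up to 4 called genes of each wider list or else the one with the largest change, 6 regulators, and the 5 most similar genes (1 in rats is not reported here); macrophage and hepatocyte markers named, and the fibrinogen, Lrg1, Hamp, Cfb and Socs3 values of single libraries, were chosen after their values were seen. The fit was also run on simulated independent libraries in which only well-counted genes were changed. That run does not cover low genes such as Lcn2 in rats, or libraries that stand apart. Alternatives are given at the end.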

Additional observations from a re-analysis of the deposited data

Results flagged for a closer look

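In 64 sets of a gene and a group, 12 had a highest library far from the others by Dixon's criterion, which chance meets in about 1 of 20 groups. In the L-Sirt1 KO saline group replicate 4 stood apart for Saa1 (6080 normalized counts, next 1255), Saa2 (2682, next 597), Lcn2 (2189, next 383), Hp (155407, next 105438) and Apcs (11582, next 7827). In the ZFR BT2 group replicate 3 stood apart for Lcn2 (175, next 40.05), Orm1 (4278, next 2366) and Apcs (1892, next 1425).

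The remaining 4 were single genes of a library, namely Orm2 in WT/Floxed LNA29 replicate 6 (798, next 536), Apcs in ZLR replicate 1 (1940, next 1550), Hp in ZLR replicate 3 (20753, next 17849), a library with 0.188 M reads, and Saa4 in ZFR replicate 1 (3098, next 2485).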

How the results depend on the processing

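In WT/Floxed mice Saa2, Lcn2, Saa1, Orm2 and Orm1 were called in every fit that left out 1 library and under a pseudocount of 10, no minimum mean, TMM scaling, sample quality weights, the flow cell or the background as a covariate. With an adjusted p-value under 0.05, 4 of them were left (without Orm2). With the replicate number as a block 2 were called (Orm1 and Saa2), and 56 genes in all in place of 688. The labels do not say that equal numbers pair the libraries. In WT/Floxed mice LNA29 replicate 2 was WT and saline replicate 2 floxed, and the groups held 8 and 5 libraries. Correlations of same-numbered libraries ran from -0.281 to 0.241 there, which cannot exclude a pairing with so few libraries. In L-Sirt1 KO mice 2 genes were called lower with sample quality weights (Hp and Saa2), and 0 to 1 when each library was left out. In ZFR 1 gene was called lower with a pseudocount of 10 and with precision weights (Crp), 2 with sample quality weights (Crp and Apcs, where Saa4 was also called higher), and 0 to 1 when each library was left out. Hp was lost with TMM scaling, the flow cell term, the replicate block, no minimum mean and without libraries under 0.5 M reads, while Lcn2 and Orm1 were called in each alternative. The size of the Lcn2 difference depended on the processing. Its log2 fold change ran from 5.08 to 6.25 in the fits without 1 library and from 3.74 to 5.68 in the other alternatives. The interaction had 0 of the 10 genes called in each alternative.

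Signs turned only for genes that were not called. In WT/Floxed mice Apcs was 0.0033 with sample quality weights and -0.134 to 0.0034 over the fits without 1 library, and Saa3 -0.300 to 0.0227. In L-Sirt1 KO mice Orm2 was 0.0178 with the flow cell term. Without 1 library it was -0.258 to 0.324, Saa3 -0.241 to 0.0902 and Crp -0.137 to 0.0107. With BT2 Saa4 was -0.0909 to 0.328 and Apcs -0.0222 to 0.134. Genes called in all were 688 in WT/Floxed mice, against 396 with no minimum mean, 1308 with sample quality weights, 206 at an adjusted p-value under 0.05 and 381 to 1006 without 1 library. They were 297 in L-Sirt1 KO mice, against 160, 804, 37 and 77 to 426 in the same order, 103 with the flow cell term and 145 with the replicate block. In ZFR they were 367, against 241 with no minimum mean, 1169 with sample quality weights, 659 with precision weights, 221 with the replicate block and 225 to 379 without 1 library. With BT2 they were 0 to 2. Leaving out libraries under 5 M reads was not run, since too few were left. The limits at 0.5 M reads, the fits without L-Sirt1 KO saline replicate 4 or ZFR BT2 replicate 3 and the interaction fits without 1 library were chosen after seeing the data. The shallow rat libraries limit genes such as Lcn2, where 1 read is worth up to 10.5 normalized counts.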
